A study of Mus musculus with 2 samples.

Results

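The genes described are the 5 NF-kappaB subunits Nfkb1, Nfkb2, Rel, Rela and Relb and 5 inhibitors of the same pathway, Nfkbia, Nfkbie, Nfkbiz, Tnfaip3 and Tnip3. They were taken by symbol from the expression matrix, where all 10 of 10 were found among 31192 genes. The cells came from hearts of mice carrying Cdh5-CreERT2, a Cre recombinase switched on by tamoxifen and driven by the promoter of the endothelial cadherin gene Cdh5, together with the REFLEX reporter. All animals received tamoxifen and underwent transverse aortic constriction (TAC), a narrowing of the aorta that loads the left ventricle with pressure. Their ages, the number of animals pooled and the time after surgery are not given in the sources used here, and no unoperated control was among the samples. CD45+ and CD45- cells, each GFP+ or GFP-, were sorted, pooled from 4 fractions and sequenced as 1 transcriptome library and 1 hashtag library, so no statistical test between conditions was possible.

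NF-kappaB proteins act as pairs. In resting cells IκB proteins hold the RelA, c-Rel and p50 pairs in the cytoplasm, and signals from Toll-like, interleukin 1 and TNF receptors lead to destruction of the inhibitor and entry of the pairs into the nucleus. Among the first genes they switch on are their own inhibitors, including Nfkbia and Tnfaip3, which closes a negative feedback loop. A slower branch uses p52, cut from the Nfkb2 product, together with RelB. In the heart under pressure load, leukocytes that enter the tissue are a known source of cytokines controlled by this pathway.

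Promoter sequence was looked at for the members as a set, and its part in their levels was not tested. Windows of 250 bases upstream of annotated starts were read from RefSeq sequences (build GRCm38.p6), and 7 of the 10 members matched with 10 windows between them. Nfkb1, Relb and Nfkbiz were not matched. The kappaB consensus was searched on both strands, as was the looser GGNNNTTCC, whose matches overlap most of those of the consensus. The consensus was present in 8 of the 10 windows, of 6 members, against 7.25% of all 32851 windows of that length. GGNNNTTCC was present in 9 of the 10, against 15.7% of all windows, and only the window of Rela held neither. The windows of 3 inhibitors are shown 5′ to 3′ on the gene's strand, with matches to either motif in capitals: Nfkbia at chr12:55492648-55492897 (minus strand), Tnfaip3 at chr10:19015411-19015660 (minus strand) and Tnip3 at chr6:65590148-65590397 (plus strand).
Nfkbia: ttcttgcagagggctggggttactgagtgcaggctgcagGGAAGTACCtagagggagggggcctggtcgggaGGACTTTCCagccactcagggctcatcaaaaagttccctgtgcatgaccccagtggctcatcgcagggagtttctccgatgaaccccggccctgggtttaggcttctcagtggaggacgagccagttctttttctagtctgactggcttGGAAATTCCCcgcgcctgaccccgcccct
Tnfaip3: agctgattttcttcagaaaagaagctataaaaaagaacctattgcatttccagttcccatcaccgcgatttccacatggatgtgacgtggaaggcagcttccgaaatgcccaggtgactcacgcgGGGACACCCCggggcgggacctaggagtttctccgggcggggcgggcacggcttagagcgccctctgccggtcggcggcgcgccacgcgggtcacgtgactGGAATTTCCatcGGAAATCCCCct
Tnip3: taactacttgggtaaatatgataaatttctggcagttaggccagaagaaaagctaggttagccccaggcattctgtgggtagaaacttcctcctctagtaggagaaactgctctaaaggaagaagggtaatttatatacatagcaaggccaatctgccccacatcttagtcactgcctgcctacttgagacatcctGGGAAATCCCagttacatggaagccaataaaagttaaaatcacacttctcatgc
The Nfkbia window holds 3 stretches in capitals, the Tnfaip3 window also 3, and the Tnip3 window 1. Another Tnfaip3 window, not shown, held GGNNNTTCC but not the consensus. A match describes letters and does not show binding. The 3 genes shared the motif and had unlike distributions over the cell types: Nfkbia had its highest class level in neutrophil-like cells, Tnfaip3 in T cell-like cells and Tnip3 in dendritic-like cells.

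Of 878 cells in the matrix, 857 were kept, with 28407 to 706332 counts per cell (median 77839). They fell into 11 clusters, of which 10 were named from marker genes and grouped into 7 classes. These were 265 neutrophil-like, 191 monocyte-like, 48 macrophage-like, 31 conventional dendritic-like, 161 B cell-like, 102 T cell-like and 27 NK cell-like cells, and 32 cells stayed unnamed. No cluster was named after endothelial cells, fibroblasts or cardiomyocytes, although CD45- fractions were part of the pool: the summed level of 11 endothelial markers was 33.9 to 154 CPM (counts-per-million) over the classes, and Ptprc, which encodes CD45, was at 267 CPM or more in every cluster. The cell names carry the tags A951, A952, A953, A965 or doublet, but which sorted fraction each tag marks is unknown here. The hashtag library gave most counts to the named tag in 331 of 331 cells named A951 and 128 of 134 named A952, but in 14 of 114 named A953 and 17 of 247 named A965. No barcode occurred under more than 1 name, and 46 kept cells were named doublet.

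Levels are given in CPM: all counts of a gene in the cells of a class were added up and scaled to the total counts of those cells. Ranges in brackets are exact 95% Poisson intervals, which cover counting error only and neither animals nor cells. CPM is not corrected for gene length, so each gene is compared with itself across cell types and not with other genes. Among member values above 0, 14.8% equalled 1 and 62.9% were 10 or more, and the sources do not say whether reads or molecules were counted. If they are reads, the intervals are too narrow.

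The inhibitors are described first. Nfkbia, which encodes IκBα, the principal cytoplasmic inhibitor of RelA and c-Rel, was at 3753 CPM (3725 to 3781) in neutrophil-like cells. It was at 1926 CPM in the unnamed cells, 1804 in dendritic-like, 1503 in monocyte-like, 1440 in macrophage-like and 1286 in T cell-like cells, then at 640 CPM in NK cell-like and 449 CPM in B cell-like cells. No neighbours in this order had overlapping intervals. The T cell-like value leaned on 1 cell with 21.9% of the counts and was 1063 CPM without it. The neutrophil-like class was first by a wide margin and B cell-like cells were last.

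Nfkbiz encodes IκBζ, an atypical nuclear family member that can raise as well as restrain transcription. Its level was 607 CPM (595 to 618) in neutrophil-like cells, 423 in the unnamed cells and 238 in dendritic-like cells. Macrophage-like cells had 173 CPM, T cell-like 146, monocyte-like 99.7, NK cell-like 66.9 and B cell-like 50.5 CPM. The first and last places were thus the same as for Nfkbia. In NK cell-like cells a single cell held 58.0% of the Nfkbiz counts, and the level without it was 29.6 CPM.

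Tnfaip3 encodes A20, a ubiquitin-editing enzyme that shuts off signalling upstream of IκB. It had another order, with 458 CPM (445 to 471) in T cell-like and 453 CPM (423 to 483) in NK cell-like cells, which overlapped. Neutrophil-like cells followed at 318 CPM (310 to 327), then the unnamed cells at 181 CPM and dendritic-like cells at 129 CPM. Macrophage-like (104 CPM) and B cell-like cells (99.6 CPM) overlapped, and monocyte-like cells were lowest at 89.8 CPM. The share of cells with any Tnfaip3 count, after thinning each cell to 25000 counts, was 79.4% in T cell-like, 85.2% in NK cell-like, 54.7% in neutrophil-like and 32.3% in B cell-like cells.

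Nfkbie, encoding IκBε, was at 149 CPM in the unnamed cells, and at 124 CPM in neutrophil-like and 119 CPM in dendritic-like cells, which overlapped. Macrophage-like cells had 75.9 CPM, monocyte-like 66.8 and B cell-like 38.4 CPM. T cell-like (21.4 CPM) and NK cell-like cells (19.9 CPM) were lowest and overlapped. T and NK cell-like cells were therefore at the top of the order for Tnfaip3 and at the bottom for Nfkbie.

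Tnip3, which encodes an A20-binding protein, had most of its counts in dendritic-like cells. Dendritic-like cells were at 396 CPM (383 to 409) and held 71.3% of all Tnip3 counts, with a count in 23 of 31 cells and at least 10 counts in 18. The unnamed cells were at 135 CPM, macrophage-like cells at 44.5 CPM and monocyte-like cells at 14.4 CPM. Neutrophil-like cells had 20 counts in all, spread over 18 of 265 cells with none reaching 10 in a cell, which is 1.09 CPM. NK cell-like, neutrophil-like, B cell-like and T cell-like cells were all at or below 3.06 CPM, with overlapping neighbours. One dendritic-like cell held 32.3% of the class counts, and the level without it was 291 CPM. In the unnamed cells 1 cell held 51.8%, and the level without it was 68.0 CPM.

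Tnip3 was a leading gene of the dendritic-like cluster although it had been kept out of the clustering. Within the 31 dendritic-like cells its level had a Spearman rho of 0.48 with Cd209a and 0.37 with Clec10a, markers of type 2 conventional dendritic cells, and of -0.28 with Clec9a, a marker of type 1 cells. Of the 8 cells with Clec9a, 5 also had Tnip3, and rho with Flt3, Itgax, Ccr7 and Fscn1 lay between -0.14 and 0.08. The values are descriptions over few cells of 1 library. Among members, rho was 0.44 with Nfkbie, 0.36 with Nfkb1 and 0.09 with Rela.

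**Figure D1:**
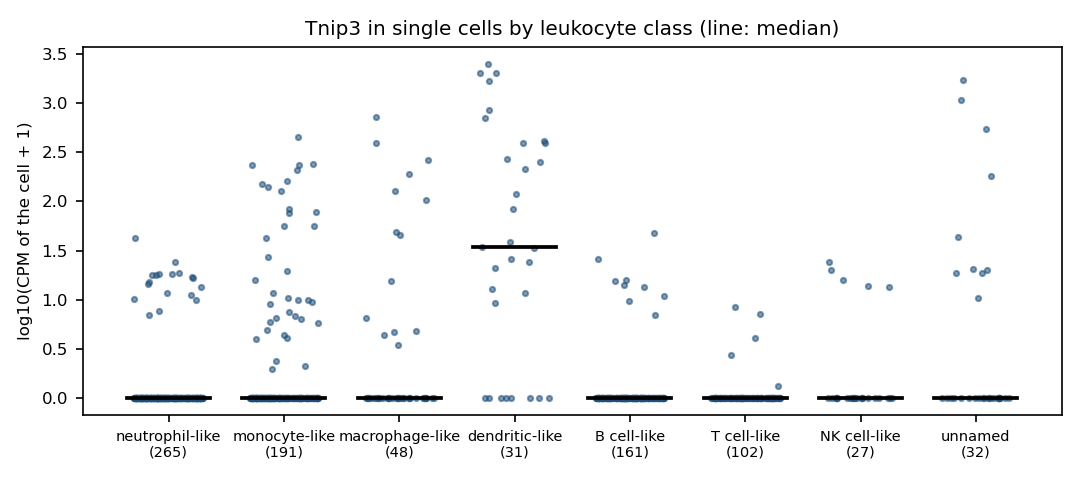
Tnip3 in each kept cell, as log10 of the cell's CPM plus 1, by leukocyte class with the number of cells in brackets; the line is the median. Most dendritic-like cells lie above 0, and the medians of all other classes lie at 0.

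S100a8, an abundant neutrophil gene, was looked at in the other classes, where its counts can come from free RNA of broken cells among other sources. Its level in macrophage-like, dendritic-like, B cell-like, T cell-like and NK cell-like cells was 0.188% to 0.266% of the neutrophil-like level, with 1.67% in monocyte-like cells and 0.867% in the unnamed cells. The lowest class levels of Nfkbia and Nfkbiz, both in B cell-like cells, were 449 of 3753 CPM and 50.5 of 607 CPM (8.33%). The part of free RNA in the member levels was not tested.

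Among the subunits, Rel, which encodes c-Rel, a subunit with known roles in lymphocytes, had the widest range over the named classes. It was at 471 CPM (458 to 483) in B cell-like and 470 CPM (456 to 485) in dendritic-like cells, which overlapped. Macrophage-like cells were at 202 CPM, monocyte-like at 180, neutrophil-like at 127, T cell-like at 88.5 and NK cell-like cells at 68.9 CPM. Of the summed subunit counts, Rel made up 61.2% in B cell-like cells and 17.2% in NK cell-like cells.

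Nfkb1, the gene of p105 and p50, was highest among named classes in dendritic-like cells at 224 CPM (214 to 234), with 109 CPM in T cell-like cells. Neutrophil-like (90.5 CPM), monocyte-like (90.2 CPM) and B cell-like cells (82.9 CPM) formed a chain of overlapping neighbours. Macrophage-like (63.5 CPM) and NK cell-like cells (50.9 CPM) were lowest and overlapped. The NK cell-like value was 27.9 CPM without the cell with the most counts, and the T cell-like value was 79.0 CPM without its top cell, which held 28.7%.

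The genes of the slower branch, Nfkb2 and Relb, were both highest among named classes in NK cell-like cells, where they made up 56.6% of subunit counts. Nfkb2 was at 111 CPM there, at 82.7 CPM in dendritic-like and 79.2 CPM in B cell-like cells, and at 65.6 and 65.3 CPM in neutrophil-like and monocyte-like cells. T cell-like (51.7 CPM) and macrophage-like cells (49.6 CPM) were lowest. Relb was at 115 CPM in both NK cell-like and dendritic-like cells. B cell-like (96.7 CPM), neutrophil-like (90.0 CPM) and macrophage-like cells (86.4 CPM) were next, then monocyte-like cells at 59.2 CPM and T cell-like cells at 37.7 CPM. Over the 11 clusters Nfkb2 and Relb had the highest Pearson correlation of any pair of members (r = 0.91), with the unnamed cluster highest in both. In the 27 NK cell-like cells the top cell held 34.9% of the Relb counts, and Relb was at 79.1 CPM without it.

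Rela, the gene of the main activating subunit p65, varied least between named classes. It was at 68.5 CPM (64.7 to 72.4) in neutrophil-like cells, at 57.1 in dendritic-like, 55.6 in monocyte-like, 53.6 in NK cell-like and 47.2 CPM in macrophage-like cells, and at 39.3 and 37.5 CPM in B cell-like and T cell-like cells. The 4 middle classes overlapped with their neighbours, as did the last pair.

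**Figure D2:**
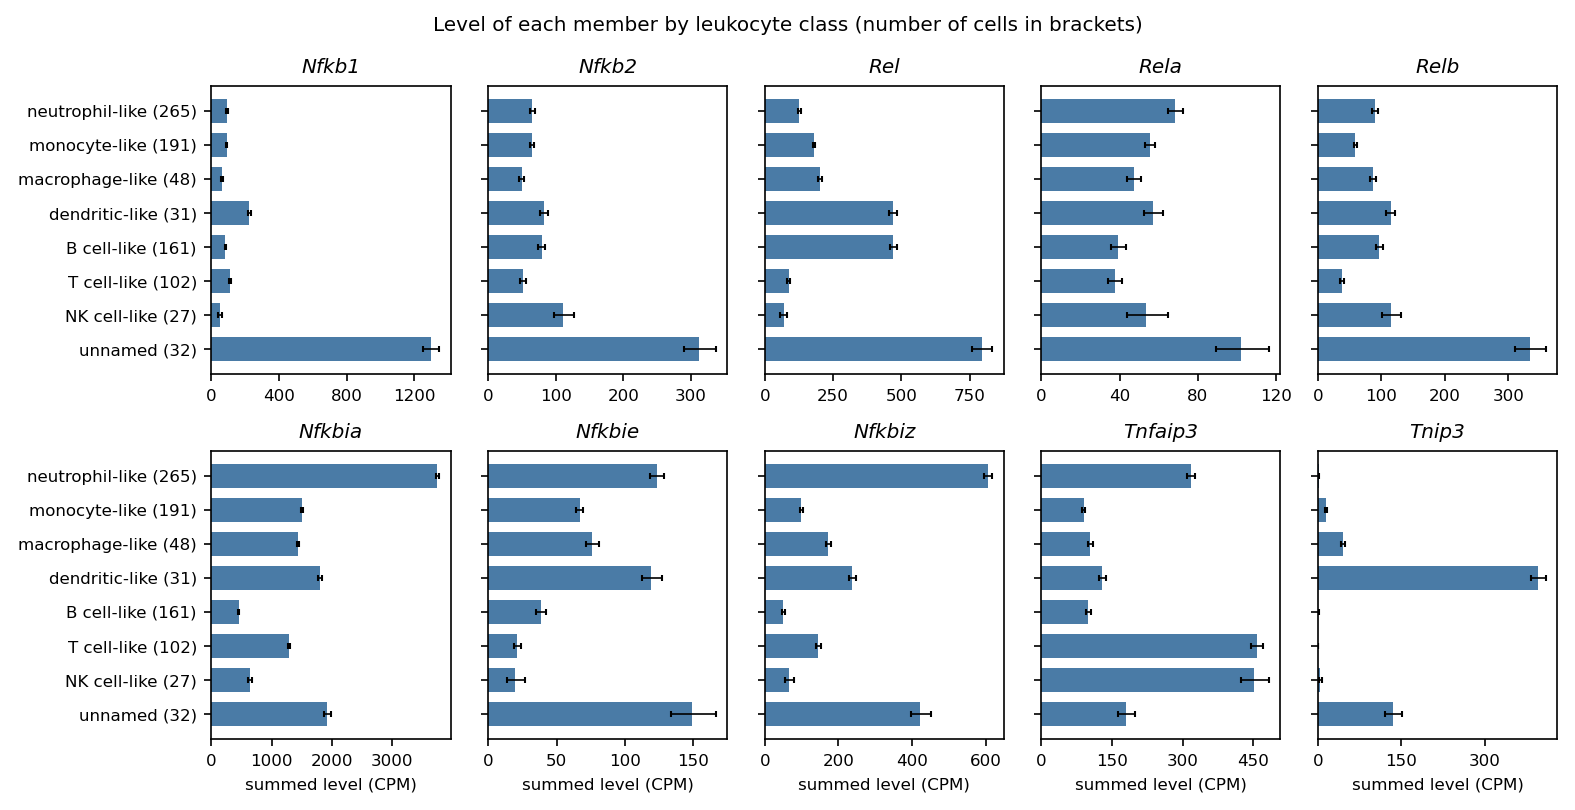
Summed level of each member in CPM by leukocyte class, with the number of cells in brackets and exact 95% Poisson intervals as error bars; each panel has its own axis from 0. Neutrophil-like cells lead for Nfkbia and Nfkbiz, T and NK cell-like cells for Tnfaip3 and dendritic-like cells for Tnip3, while all 5 subunits are highest in the unnamed cells.

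The 32 unnamed cells had the highest summed level of all 5 subunits. Nfkb1 was at 1298 CPM there, Rel at 795, Relb at 334, Nfkb2 at 312 and Rela at 102 CPM, each above every named class. Nfkb1 was at 1201 CPM without its top cell. Rela rested on few cells: 1 cell held 29.6% of its counts, the level without it was 79.1 CPM, and the level was 12.7 CPM in the 14 unnamed cells under A951 and 236 CPM in the 10 under A965. The cluster was led by Plcb1, Fnip2 and Vav3. The nuclear RNA Malat1 had a median of 16288 CPM per cell in it, against at most 3234 in any other cluster, and mitochondrial counts had a median of 7.96%. Whether these features have a part in the subunit levels was not tested.

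Summing the 5 inhibitors and the 5 subunits gave a ratio that can be compared between cell types, though not read as a ratio of molecules. Inhibitor counts per subunit count were 10.9 in neutrophil-like cells, 5.89 in T cell-like, 4.09 in macrophage-like, 3.94 in monocyte-like, 2.95 in NK cell-like and 2.83 in dendritic-like cells. The ratio was 0.990 in the unnamed and 0.831 in B cell-like cells. Within the monocyte-like class it was 11.2 (10.4 to 12.1) in the 15 cells of the cluster led by interferon-induced genes, near that of neutrophil-like cells. In that cluster Nfkbia made up 85.4% of the inhibitor counts and was lower without its top cell, and 4 of the 15 cells were named doublet. In neutrophil-like cells the inhibitor sum was 4802 CPM, of which Nfkbia made up 78.1%, and the subunit sum was 441 CPM, close to the 450 CPM of monocyte-like and 449 CPM of macrophage-like cells.

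The first comparison set the neutrophil-like cells against all 592 other kept cells. Nfkbiz was at 607 against 134 CPM, which is 4.54-fold higher (exact 95% interval 4.42 to 4.66). Nfkbia was at 3753 against 1342 CPM, 2.80-fold higher (2.77 to 2.82), and Tnfaip3 at 318 against 155 CPM, 2.05-fold higher (1.99 to 2.11). Rel was at 127 against 258 CPM, a log2 ratio of -1.02, and the other cells include the unnamed ones, where Rel was at 795 CPM. Tnip3 was at 1.09 against 60.2 CPM, a log2 ratio of -4.87. Nfkbie was 1.89-fold higher, and the other 4 members, all subunits, were within 2-fold.

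Log2 ratios here have 1 CPM added to both sides, and a gene counted as higher or lower when they reached 1 in size. By that rule 3 of 10 members were higher, where 8.6% of 18243 genes with at least 50 counts were, and 2 were lower, where 32.6% of all genes were (41.2% in either direction). The median log2 ratio was 0.29 for the members and -0.47 for all genes. Relative to that shift of all genes Nfkbie also passed 2-fold and Rel did not. With another clustering (resolution 2), or with 10 CPM added in place of 1, Nfkbia, Nfkbiz and Tnip3 alone passed. Rel and Tnfaip3 each passed in 9 of the 13 alternative settings. The lowest log2 ratio of Tnfaip3, 0.72, came with each cell weighted alike.

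The other pathway genes are counted against the same shares of all genes, 8.6% higher and 32.6% lower. Of 12 kinases and scaffolds none was higher and 4 were lower in the neutrophil-like cells, a share near that of all genes, among them Ikbkb, which encodes the IκB kinase subunit IKKβ, at 31.4 against 118 CPM. Of 16 adaptors 1 was higher (Tirap) and 5 were lower, also near the shares of all genes. Of 14 other inhibitors 4 were higher (Nfkbid, Tnip1, N4bp1 and Pdlim2) and Otulin was lower. Nfkbid, which encodes the nuclear IκB protein IκBNS, was at 345 against 100.2 CPM. Of 16 receptors 3 were higher, namely the lipopolysaccharide co-receptor Cd14 (2300.0 against 844 CPM), Il1rap and the TNF receptor gene Tnfrsf1b, and 8 were lower. Of 26 target genes 16 were higher and 3 lower, with a median log2 ratio of 1.69. That list was chosen with earlier results of these data known. Il1a, Cxcl2, Ccl3, Icam1, Il23a and Marcksl1, among the 16, were leading genes of a neutrophil-like cluster, so the count is a description. Cxcl2, a neutrophil-attracting chemokine, was at 15303 against 1001 CPM, and Il1b, encoding interleukin 1β, at 11189 against 1621 CPM. Of 15 immediate early and dissociation genes, which tissue digestion is known to raise, 4 were higher (Junb, Egr1, Dusp1 and Btg2) and 2 lower, and their sum was 14662 against 7404 CPM. The part of cell handling in the member levels was not tested.

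**Figure D3:**
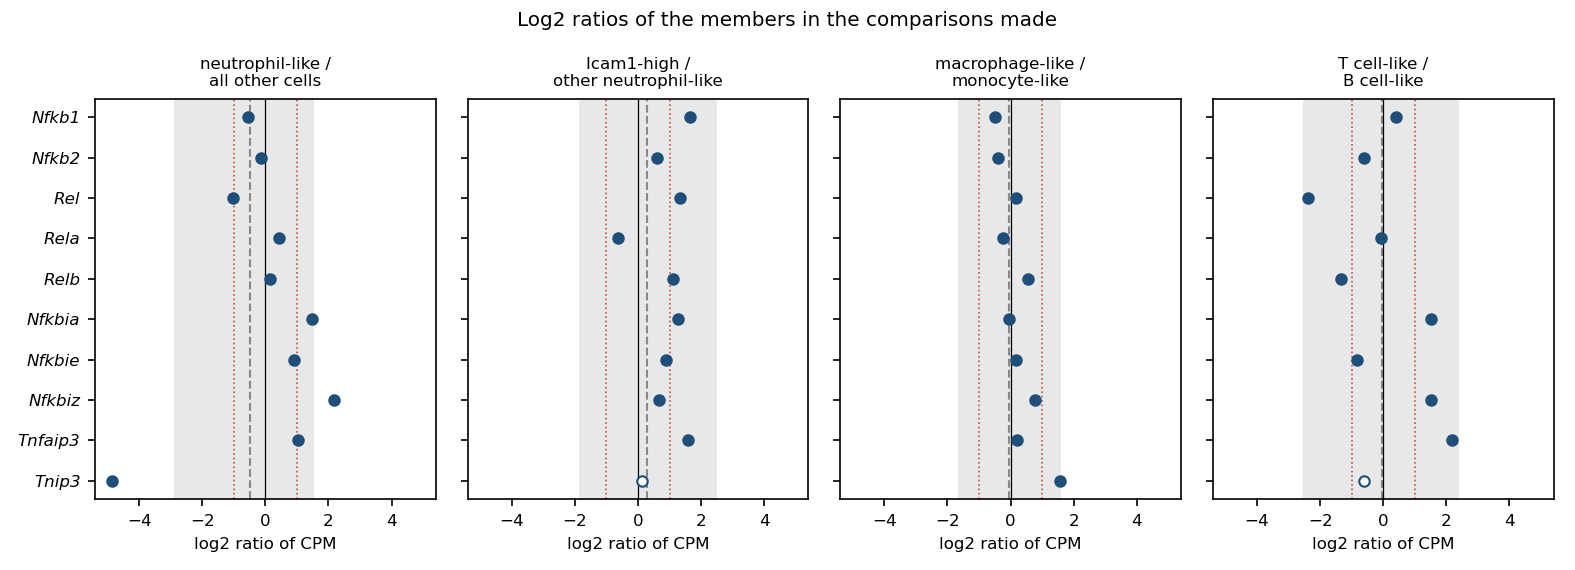
Log2 ratio of the summed CPM of each member in 4 comparisons, with 1 CPM added to both sides; filled points had at least 50 counts and open points fewer. The grey band spans the 5th to 95th percentile of all genes tested, the dashed line is their median and the dotted lines mark 2-fold. Nfkbiz and Tnip3 lie outside the band in the neutrophil-like comparison.

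The second comparison was made within the neutrophil-like cells, between a cluster with high Icam1 and the rest. Icam1 encodes an adhesion molecule that is itself a target of the pathway. It was at 1130 CPM in 96 cells and at 116 CPM in the other 169. The members, Icam1 and the other pathway genes had been left out of the clustering. Since the rule picked the cluster by Icam1, the ratio of that gene is a description. The 96 cells were led by Il23a, Gpr84, Icam1 and Marcksl1, and the other 169 by the granule and secretory genes Retnlg, Ngp and Camp.

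Nfkbia had a median of 4447 CPM per cell (quartiles 902 and 9692) in the Icam1-high cells and 1178 CPM (38.5 and 3857) in the others. The cells ranged from 0 to 25732 CPM and from 0 to 24074 CPM, so the groups overlapped widely cell by cell. The summed level was 6120 against 2566 CPM, 2.38-fold higher (2.35 to 2.42). Tnfaip3 had medians of 277 and 8.95 CPM per cell, and summed levels of 572 against 191 CPM, a ratio with an interval of 2.85 to 3.16. Among the subunits, Nfkb1 was at 166 against 52.8 CPM (3.14-fold), Rel at 213 against 83.6 CPM (2.55-fold) and Relb at 141 against 64.3 CPM (2.20-fold). These 5 members passed 2-fold upward.

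Not all members did so. Nfkbie was 1.86-fold, Nfkbiz 1.58-fold and Nfkb2 1.53-fold higher. Rela was lower, at 49.7 against 77.9 CPM, a ratio of 0.638. Tnip3 had too few counts for the comparison. For Nfkb1 and Relb the median cell had no count in either group, so the sums rest on the upper part of the cells. The share of cells with a count after thinning was 30.2% against 21.3% for Nfkb1, 36.5% against 21.9% for Relb, 78.1% against 41.4% for Tnfaip3 and 31.2% against 32.5% for Rela.

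**Figure D4:**
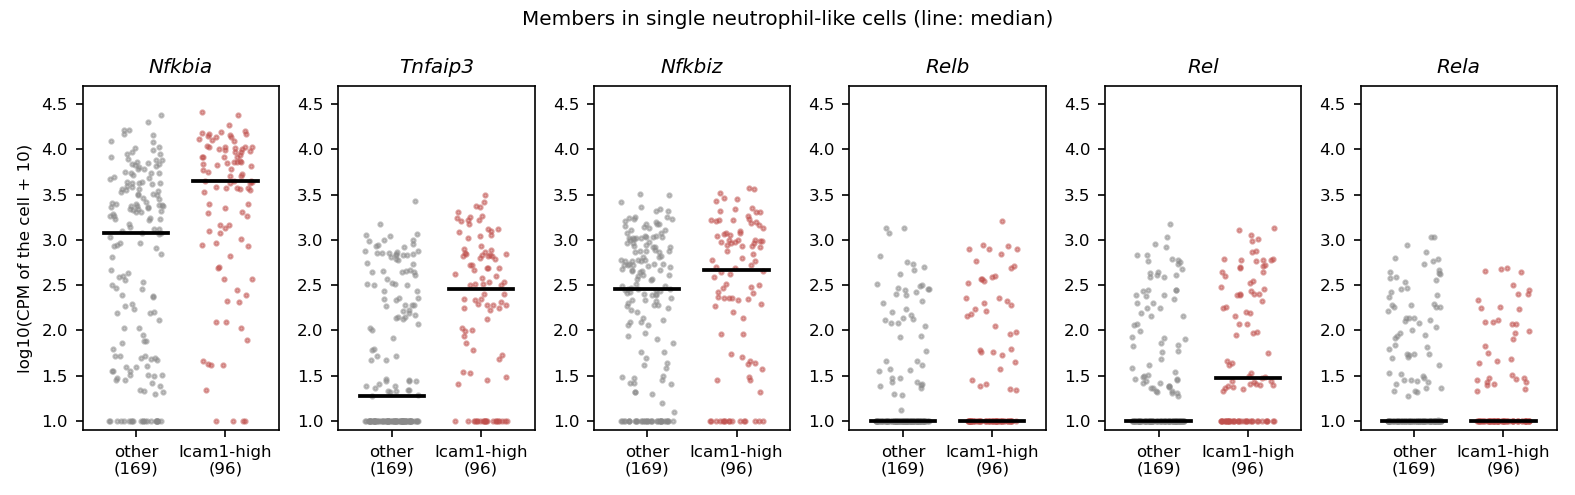
Log10 of CPM plus 10 in each neutrophil-like cell for 6 members, in the 169 other and 96 Icam1-high cells; the line is the median. Nfkbia and Tnfaip3 have higher medians in the Icam1-high cells with wide overlap, and the median of Rela is at no count in both.

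Of the 9 members tested, 5 were higher, where 24.9% of 9611 genes were, and none lower, where 11.3% were (36.1% in either direction). The median over all genes was itself 0.30 above 0, and relative to it 3 members passed 2-fold (Nfkb1, Rel and Tnfaip3). The count depended on how the cells were divided. At a clustering resolution of 0.5 the neutrophil-like cells formed 1 cluster, and splitting that cluster again gave 120 cells with Icam1 at 723 CPM against 153 cells with 243 CPM. No member then passed 2-fold, with log2 ratios of 0.80 for Nfkb1, 0.61 for Nfkbia, 0.58 for Rel and 0.56 for Tnfaip3. The sign of each of the 9 members' log2 ratios was kept under all 13 alternative settings. Leaving out the count filter or adding 10 CPM could not have changed a sign.

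The same contrast was taken within each tag name, which describes subsets of 1 library and gives no replicates. For Nfkbia the Icam1-high cells were at 5119 against 2385 CPM under A951 (49 and 81 cells), 7396 against 3204 CPM under A952 (20 and 40 cells), 5216 against 1976 CPM under A953 (5 and 14 cells) and 6450 against 1938 CPM under A965 (9 and 19 cells). In cells named doublet (13 and 15 cells) it was at 7517 against 3200 CPM. The lowest Icam1-high value was thus above the highest other value. Tnfaip3 ranged from 321 to 730 CPM in the Icam1-high cells and from 118 to 299 CPM in the others over the 4 tags. Nfkb1, Rel, Nfkbia, Nfkbie, Nfkbiz and Tnfaip3 were higher in the Icam1-high cells in 4 of 4 tags, and Rela was lower in 4 of 4 (ratios 0.340 to 0.877). For Rel the ratio under A953 was 1.12, with overlapping intervals (171 to 287 against 172 to 230 CPM). Relb was higher in 3 of 4, with ratios from 0.160 under A953 to 6.05 under A951, and Nfkb2 in 2 of 4. In the cells named doublet Nfkbie was lower in the Icam1-high cells, at 50.1 against 145 CPM (ratio 0.344), as were Rel (ratio 0.772), Relb (ratio 0.910) and Rela (ratio 0.489).

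**Figure D5:**
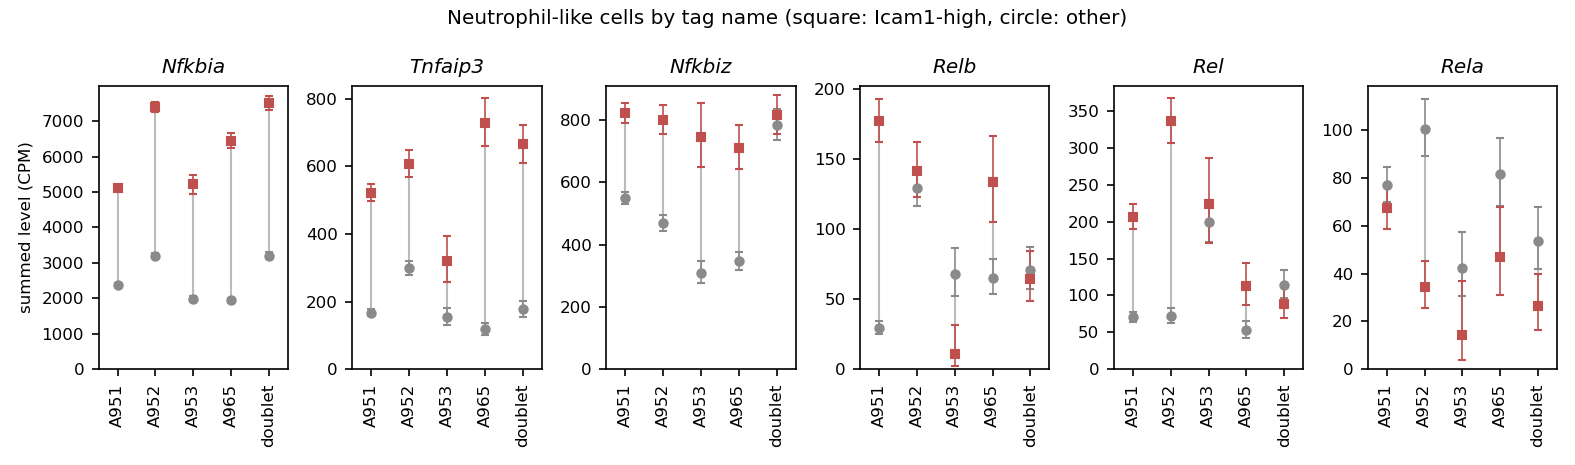
Summed CPM of 6 members in Icam1-high (squares) and other (circles) neutrophil-like cells by the tag in the cell name, with exact 95% Poisson intervals. The squares of Nfkbia and Tnfaip3 lie above the circles under every name, those of Rela lie below, and Relb has its widest gap under A951.

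Other pathway genes are given beside this result, to be read against the 24.9% of all genes that were higher and the 11.3% that were lower. Of 25 target genes tested 16 were higher and none lower (median log2 ratio 1.18), among them Marcksl1 at 2892 against 809 CPM and the chemokine gene Ccl3 at 2259 against 1006 CPM. The 16 include Icam1, by which the cluster was picked, so its place there was fixed by the rule. Il1a, Ccl3, Il23a and Marcksl1, also counted, were leading genes of the same cluster, so the count is a description. Cxcl2 (1.61-fold) and Il1b (1.56-fold) did not reach 2-fold. Of 14 adaptors 7 were higher and none lower: Traf1, Traf6, Irak1, Irak2, Ticam1, Tradd and Malt1. Irak2, a kinase of the interleukin 1 and Toll-like receptor complex, was at 296 against 96.2 CPM. Of 11 kinases and scaffolds 4 were higher (Map3k7, Tab3, Ripk1 and Ikbke), not far from the share of all genes, and Ikbkb was at 22.1 against 36.1 CPM. Of 14 other inhibitors only Tnip1 passed. Bcl3 (200.1 against 229 CPM) and Nfkbid (383 against 326 CPM), both encoding nuclear IκB proteins, did not. Of 12 receptors 4 were higher (Tlr7, Il18r1, Cd40 and Tnfrsf18) and 1 lower (Il1rap), also not far from it. Of 14 immediate early and dissociation genes 1 was higher (Egr1), with a median log2 ratio of 0.13 and sums of 16601 against 13691 CPM.

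Markers of other cells also differed. The summed level of 8 classical monocyte markers was 3270 CPM in the Icam1-high cells and 967 CPM in the others, most of it Chil3 (2702 CPM in the Icam1-high cells). The neutrophil markers summed to 40837 against 133065 CPM, 8 cardiomyocyte markers to 223 against 139 CPM and 11 endothelial markers to 65.0 against 27.7 CPM. Median depth was 58820 against 66879 counts per cell and median mitochondrial share 2.43% against 1.97%. Of the 96 cells, 13 were named doublet, and with such cells left out before clustering the log2 ratios were 1.88 for Nfkb1, 1.74 for Tnfaip3 and 1.28 for Nfkbia. The part of the monocyte and other markers in the member ratios was not tested.

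Cell by cell over the 265 neutrophil-like cells, Nfkbia and Tnfaip3 varied together more closely than any other pair that included Nfkbia. Spearman's rho was 0.69 in all cells, 0.61 within the Icam1-high cells and 0.65 within the others. With Icam1, rho for Nfkbia was 0.49 in all cells, 0.61 within the Icam1-high cells and 0.22 within the others. It was 0.45 with Nfkbie, 0.44 with Nfkbiz, 0.40 with Relb and -0.04 with Rela, and near 0 with the depth of the cell (0.00) and its mitochondrial share (0.01). These cells share 1 library, and the correlations are descriptions.

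Monocyte-like cells came from 3 clusters. The 80 patrolling cells had Rel at 334 CPM against 122 CPM in the 96 classical cells, Tnfaip3 at 160 against 60.5 CPM and Nfkbiz at 157 against 58.4 CPM. Nfkbia was at 1580 against 1317 CPM. Another cluster of 15 cells, led by the interferon-induced genes Ifit1, Ifit3 and Rsad2, had Nfkbia at 2945 CPM, or 2367 CPM without its top cell. Of those 15 cells 4 were named doublet, and Cxcl2 was at 5697 CPM in them.

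Macrophage-like cells were set against all monocyte-like cells. Tnip3 was at 44.5 against 14.4 CPM, 3.09-fold higher (2.74 to 3.49), and 1 macrophage-like cell held 41.4% of the counts, with 26.8 CPM without it. Under A951 the levels were 119 against 6.97 CPM, and under A952 the direction turned, with 14.0 against 19.1 CPM. The other 9 members were within 2-fold. Thus 1 of 10 was higher, where 11.4% of 13975 genes were, and none was lower, where 13.2% were (24.6% in either direction). Nfkbiz came nearest, at 173 against 99.7 CPM (1.73-fold), and passed 2-fold at a resolution of 2. Of the kinases and scaffolds 5 of 12 were lower in macrophage-like cells (Ikbkb, Map3k14, Tab2, Tab3 and Ripk1), and Map3k8, encoding the kinase TPL2, was higher at 273 against 133 CPM. Of 26 target genes 8 were higher and 2 lower.

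T cell-like cells were above B cell-like cells for 3 inhibitors and below them for 2 subunits. Tnfaip3 was at 458 against 99.6 CPM, 4.60-fold higher in T cell-like cells (4.31 to 4.91). Nfkbiz was 2.89-fold higher, at 146 against 50.5 CPM, and Nfkbia 2.86-fold higher. Rel was at 88.5 CPM in T cell-like and 471 CPM in B cell-like cells, 5.31-fold higher in the latter, and Relb at 37.7 against 96.7 CPM, 2.57-fold higher in the latter. Of 9 members tested, 3 were higher in T cell-like cells, where 15.7% of 12428 genes were, and 2 lower, where 19.2% were (35.0% in either direction). Each of these 5 kept its side of 2-fold under all 13 alternatives, of which leaving out the count filter could not change a ratio. Nfkb1, Nfkb2, Rela and Nfkbie were within 2-fold, and Tnip3 had too few counts. Of 15 adaptors 2 were higher and 6 lower in T cell-like cells, with Malt1, which links antigen receptors to the IκB kinases, at 76.0 against 225 CPM. Of 15 receptors tested 6 were higher: Tnfrsf4, Tnfrsf9 and Tnfrsf18, which are costimulatory receptors of T cells, Il18r1, Tnfrsf1a and the myeloid gene Cd14. Another 6 were lower, among them Cd40 and the BAFF receptor gene Tnfrsf13c, which act in B cells. Some genes that were far higher in neutrophil-like cells were also above their B cell-like level in the T cell-like cells. Among them Cd14 was at 53.7 against 5.41 CPM, Cxcl2 at 251 against 33.6 CPM and Il1b at 82.3 against 31.5 CPM. Others were below it, such as Ccl3 at 10.2 against 58.0 CPM, Marcksl1 at 45.0 against 159 CPM and Nfkbid at 109 against 154 CPM. The 10 neutrophil markers summed to 328 CPM in T cell-like and 253 CPM in B cell-like cells. Their part in the inhibitor ratios was not tested.

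The genes whose level over the 11 clusters was most like the mean profile of the 10 members were Arih2 (Pearson r = 0.92), Dpep3 (0.91), Furin (0.90), Spag9 (0.90) and Pip5k1c (0.89), out of 6047 genes ranked. All 5 were highest in the unnamed cluster. Without that cluster r was 0.84 for Arih2 and 0.78 to 0.80 for the other 4. Among the members, Nfkbia and Nfkbiz had r = 0.90 over the clusters, and Tnfaip3 and Tnip3 had r = -0.44.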

How the data were processed

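One transcriptome library and 1 hashtag library of the same pooled cells (BD Rhapsody, TAS-Seq) were used. The build GRCm39, STARsolo 2.7.10b, STAR, cutadapt 4.1 and R 4.3.1 are listed without roles, per the submitters' processing notes. The authors deposited the transcriptome as unnormalized estimated counts for every gene in every cell, of which 69.8% above 0 are whole. The hashtag file holds whole counts per tag, as deposited. Cells with at least 500 counts, 200 genes and at most 25% mitochondrial counts were kept; 21 were left out, and cells named doublet stayed. With scanpy 1.11.5, 2000 variable genes without 109 listed genes, 30 principal components, 15 neighbours and Leiden resolution 1 gave the clusters. A cluster was named when at least 3 markers reached 50 CPM and 2 times the level elsewhere. Summed counts, also fractional ones, were scaled to CPM; intervals are exact Poisson and, for ratios, Clopper-Pearson (95%). No p-values were computed, since each group is 1 library. The formulas of the ratio and its interval were tested on simulated Poisson counts without spread between cells. The clustering and naming were not tested in this way.

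The members, gene lists and markers were chosen with earlier results of these data known. Named genes were all members, up to 4 per pathway list with the highest CPM in the class where the list was highest, and the 5 most alike over clusters. Genes named as higher or lower within a list are those past 2-fold, and the markers, leading genes and Malat1 were named after their values were seen. Resolution, filters, doublets, weighting, thinning, rounding and scaling were varied.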

Additional observations from a re-analysis of the deposited data

How the results depend on the processing

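Of 51 counts of members past 2-fold under 13 alternatives, 46 stayed within 1.5 times the count reported. In neutrophil-like cells against all others the count was 3 in place of 5 at resolution 2 and also 3 with 10 CPM added. In macrophage-like against monocyte-like cells it was 2 in place of 1 at resolution 2, and it could not be computed at resolution 0.5, where no cluster was named macrophage-like. In the Icam1-high against the other neutrophil-like cells it was 3 in place of 5 after centring on the median of all genes, and 0 at resolution 0.5. Apart from the centring, which lowers each ratio by construction, the cause was not tested. Of 510 log2 ratios of single members, 493 kept their sign, and none past 2-fold changed sign. Part of this agreement holds by construction. Leaving out the filter on counts cannot change a log2 ratio, and adding 10 CPM cannot change its sign. Several other alternatives used the same clusters as the main setting. Of the alternatives 10 were planned and 3 (centring, the top cell left out, unnamed and doublet-named cells left out) were chosen after seeing the data. No paired analysis was possible because each group is 1 library. Low counts limit what can be said of Tnip3 in the neutrophil-like, B, T and NK cell-like classes, where it had 20 counts or fewer per class.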
